A study of Bos taurus with 9 samples.

Results

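The 52 genes described here are the mitosis and kinetochore genes of bovine ear fibroblasts (BEFs) and of the chemically induced adipocyte-like cells (CiADCs) made from them. The rule picks them by symbol and uses no measured value, and they make up 52 of the 21512 genes in the expression table. For 51 the symbol matched exactly, and BUB3, written Bub3 in the table, was matched by its gene ID. CENPA also stood on a further entry with another gene ID, which held at most 2 counts in any sample and was not used, so CENPA below is the entry with gene ID 613898.

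Total RNA was extracted for sequencing from 3 groups of wild-type (WT) Bos taurus cells, with 3 samples in each group and 9 in all. BEFs, labelled BearF cell and control and named AnEFs in the expression table, were collected on day 0 from fibroblasts that had grown out of ear tissue in serum-containing DMEM. CiADCs-3d and CiADCs-6d, labelled CiAD cell and induced adipocytes, had spent 3 and 6 days in N2B27 medium with 10 µM RepSox (against the TGF-beta receptor kinase), 500 µg/mL VPA (against histone deacetylases) and 1 µM TTNPB (an activator of retinoic acid receptors). Cells cultured to day 3 or day 6 in the absence of the compounds were not sampled, so the compounds, the change of medium and the days in culture cannot be told apart, and neither can fewer dividing cells and less RNA per cell. The labels do not say whether the samples of a group came from separate animals or cultures, so the p-values below measure only the spread between these samples. The fibroblasts came from a tissue outgrowth that is not described as cloned, and the labels of the day 0 samples give the same treatment word, reprogramming, as those of the induced cells.

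A dividing cell condenses its chromosomes, builds a bipolar spindle and attaches every sister chromatid to spindle microtubules through a kinetochore, a large protein assembly laid down on centromeric chromatin. Cyclin B with CDK1 drives the cell into mitosis, the spindle assembly checkpoint holds it there until all kinetochores are attached, and the anaphase-promoting complex (APC/C) with CDC20 then marks securin and cyclin B for destruction so that sister chromatids part and the cell divides. Most of these genes are transcribed in G2 and mitosis, under FOXM1 and the B-Myb and MuvB complex, and are low in cells that have left the cell cycle, which is why they serve as a readout of proliferation in fibroblasts.

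The libraries held between 18509244 and 24071580 estimated counts. Of 9 fibroblast markers all were detected in every sample, and their summed FPKM (a level per kilobase of transcript, scaled to library size) lay between 16934 and 17195 in BEFs, between 5971 and 8147 in CiADCs-3d and between 4005 and 5104 in CiADCs-6d. Most of the BEFs sum came from COL1A1, COL1A2 and VIM, with means of 4528, 3478 and 5206 FPKM. Of the 9, 4 were called lower on day 3 and 5 on day 6, and 0 higher. COL3A1 was called on neither day, and PDGFRA (log2 0.90) and PDGFRB (0.70) were higher on day 3 by the adjusted p alone. Of 8 adipocyte markers the summed FPKM was between 21.5 and 25.8 in BEFs, 16.4 and 30.0 in CiADCs-3d and 10.96 and 12.5 in CiADCs-6d. FABP4 made up most of the BEFs sum, at 16.35 to 18.2 FPKM in BEFs and 0.83 to 2.25 in CiADCs-6d. The lower day 6 sum came from the fall of this gene. LEP was at most 0.22 FPKM and CIDEC at most 0.24 FPKM in every induced sample, and neither ADIPOQ nor PLIN1 passed 1.96 FPKM in any sample. Of the 7 adipocyte markers tested, ADIPOQ (log2 2.08 and 1.79 on day 3 and day 6) and LPL (2.37 and 1.24) were called higher on both days, PPARG on day 3 (1.68) and CEBPA on day 6 (2.203), while FABP4 (-1.04 and -3.64) and CIDEC (-2.59 and -4.32) were called lower on both and PLIN1 on neither. The summed FPKM of 5 keratinocyte markers was 14.6 to 26.6 in BEFs and 9.9 to 25.8 in the induced samples, that of 5 melanocyte and Schwann cell markers 5.12 to 6.22 and 7.65 to 10.6, and that of 4 muscle markers 2.2 to 2.86 and 0.7 to 3.33. Blood cell markers, with PTPRC at 0 in all samples, summed to 0.41 to 0.73 FPKM in BEFs and 2.19 to 7.93 in the induced samples, and 5 endothelial markers to 2.04 to 2.92 and 23.3 to 51.7, where VWF made up most of the induced sum and CDH5 and KDR stayed at or under 0.25 FPKM. On both days the blood cell markers CD68 (log2 2.68 and 3.43) and CSF1R (1.89 and 3.14) and the endothelial markers VWF (5.57 and 4.98) and TIE1 (1.42 and 2.52) were called higher. So were TP63 of the keratinocyte list (3.02 and 2.79), MITF of the melanocyte list (1.13 and 1.24) and MYH11 of the muscle list (3.29 and 2.49). Some of these folds rest on low counts. CSF1R had 2 to 4 counts in the BEFs samples and 3 to 28 in the induced samples, and TIE1 had 7 to 16 in the BEFs samples. The endothelial marker PECAM1 was called on neither day (-0.66 and -0.76) and was lower on day 6 by the adjusted p alone. The keratinocyte marker DSG3 was called higher on day 6 only (1.05). By contrast DES of the muscle list was called lower on both days (-1.60 and -2.57) and KRT5 of the keratinocyte list on day 3 (-1.04). The part of all these markers in the results below was not tested. The CiADCs-3d libraries stood apart from each other for the genes described here. CiADCs-3d replicate 1 was the lowest CiADCs-3d sample for 38 of the 52 genes (73.1%), against 40.6% of all tested genes. CiADCs-3d replicate 3 was the highest CiADCs-3d sample for 45 of the 52 genes (86.5%), against 27.6% of all tested genes, so results on day 3 are also given without it where they moved. That sample also had the largest library of its group and the highest summed fibroblast marker level (8147 against 5971 and 7778 FPKM), and the part of either in the result was not tested.

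Mitosis and kinetochore genes were almost uniformly lower after induction. A gene was called when its adjusted p in edgeR's quasi-likelihood test was under 0.05 and its log2 fold change was at least 1 in size. On day 3, 50 of the 52 were called lower and 0 higher, where 9.94% of the 14020 tested genes were called lower and 18.2% higher. On day 6 it was 49 lower and 0 higher, against 13.4% and 21.9% of all tested genes. The median log2 fold change of the 52 genes was -3.43 on day 3 and -4.34 on day 6, while that of all tested genes was 0.01 and 0.03. By the adjusted p alone 52 were lower and 0 higher on day 3 (29.1% and 30.9% of all genes), and 51 lower and 0 higher on day 6 (31.9% and 35.6%). Every CiADCs-3d sample lay below every BEFs sample in 52 genes (35.4% of all genes) and above in 0 (35.1%), and every CiADCs-6d sample lay below in 51 (35.0%) and above in 0 (37.7%). All 52 passed the filter on low counts, 46 of them with at least 10 counts in each of the 9 samples. Because both comparisons use the same BEFs samples, they are not independent of each other.

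Expressed as a share of the BEFs mean in CPM (counts scaled to library size), the median residual level of the 52 genes was 9.12% on day 3 and 4.89% on day 6. At day 3 the residual level was under 5% for 5 genes, between 5% and 10% for 22, between 10% and 20% for 16, between 20% and 50% for 7 and above 50% for 2. By day 6, 26 genes were under 5%, 9 between 5% and 10%, 10 between 10% and 20%, 4 between 20% and 50%, and 3 above. Sample by sample, the median over the genes was 6.32%, 8.09% and 14.0% in the CiADCs-3d samples and 4.28%, 5.56% and 4.39% in the CiADCs-6d samples. The CiADCs-3d samples therefore spread more widely than the CiADCs-6d samples, and the lowest CiADCs-3d median was still above the highest CiADCs-6d median. With each induced sample left out in turn, an alternative chosen after seeing the data, the group value ran from 7.15% to 11.2% on day 3 and from 4.52% to 4.98% on day 6.

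**Figure D1:**
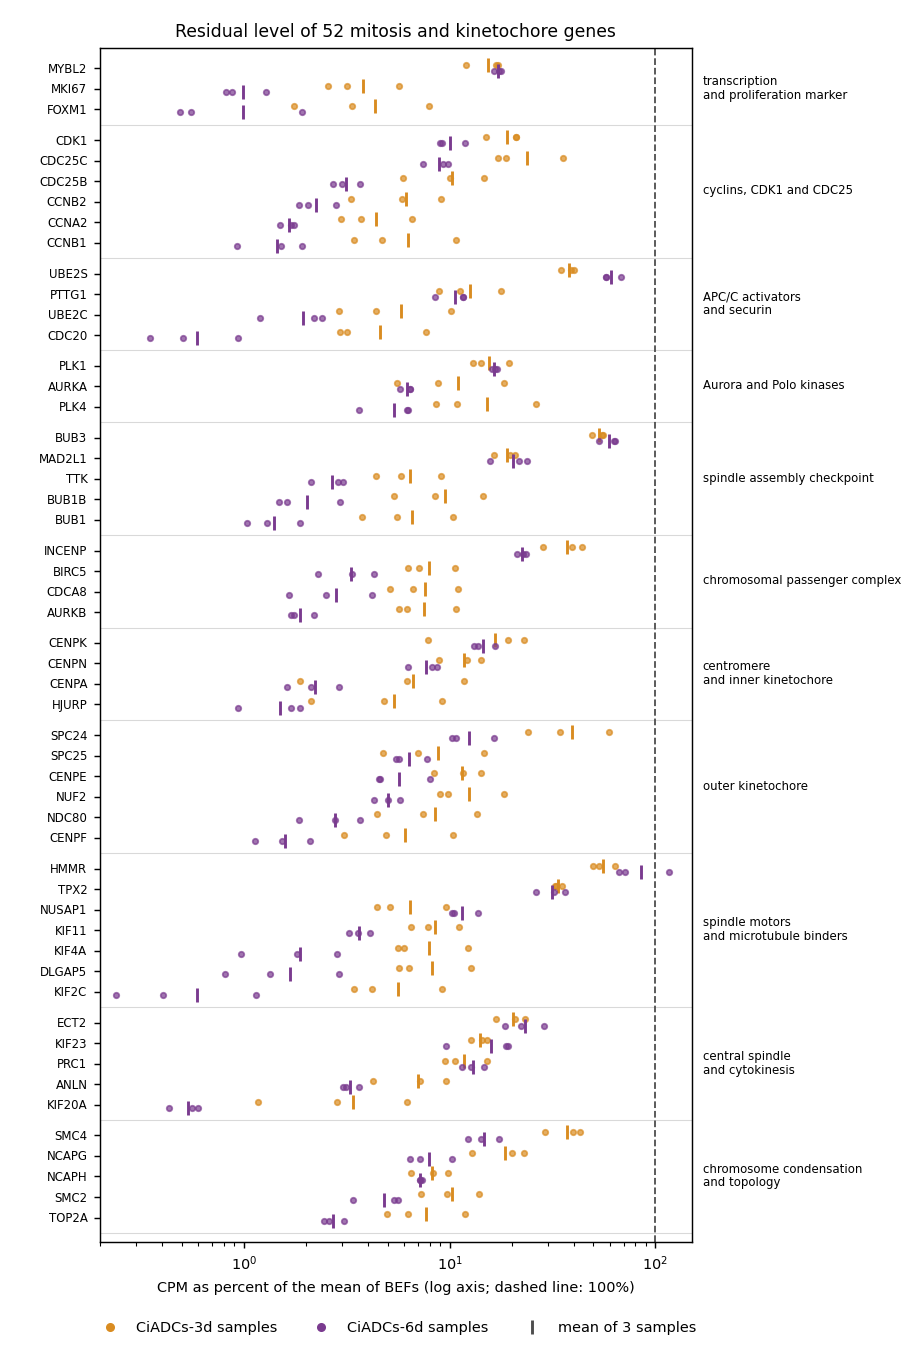
Residual level of each of the 52 genes, as CPM in percent of the BEFs mean on a log axis, with 1 point per CiADCs sample and a bar at the mean of 3 samples, grouped by role. Nearly all points lie left of the dashed line at 100%, the 6-day points of KIF20A, KIF2C and CDC20 lie lowest, with means of 0.532% to 0.594%, and BUB3, UBE2S and HMMR lie farthest to the right on day 6.

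**Figure D2:**
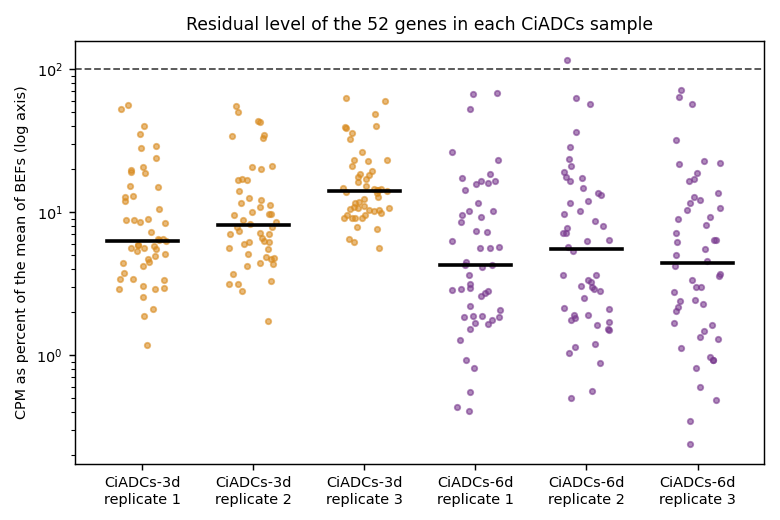
The same residual levels by CiADCs sample, with 1 point per gene on a log axis and a bar at the median over the 52 genes. The bar of CiADCs-3d replicate 3 stands at 14.0%, above the other CiADCs-3d samples, and the bars of the 3 CiADCs-6d samples lie between 4.28% and 5.56%.

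Transcription and proliferation. MKI67, which encodes the Ki-67 protein that coats mitotic chromosomes and is the usual marker of proliferation, stood at 51.4, 54.5 and 48.9 FPKM in BEFs, 1.35, 1.64 and 2.94 in CiADCs-3d and 0.68, 0.47 and 0.42 in CiADCs-6d. No group overlapped another, and the highest induced sample was far below the lowest BEFs sample. Its log2 fold change was -4.71 ± 0.27 (SE, adjusted p = 2.45e-08) on day 3 and -6.65 ± 0.30 (SE, adjusted p = 2.77e-09) on day 6, which left 3.8% and 0.992% of the BEFs level. FOXM1, the forkhead factor that activates G2 and mitotic genes, changed by -4.49 ± 0.38 and -6.60 ± 0.46 (log2, SE), and by -5.30 on day 3 without CiADCs-3d replicate 3 and -7.54 on day 6 without CiADCs-6d replicate 2. Its CiADCs-6d values rest on 4, 14 and 3 counts. MYBL2 (B-Myb), which acts with the MuvB complex ahead of FOXM1, kept more of its level, at 39.6, 37.4 and 39.2 FPKM in BEFs, 4.69, 6.3 and 6.52 in CiADCs-3d and 6.66, 6.87 and 6.18 in CiADCs-6d. The induced samples of MYBL2 overlapped each other and all lay below the BEFs, with log2 fold changes of -2.70 ± 0.13 (SE, adjusted p = 6.23e-09) and -2.54 ± 0.13 (SE, adjusted p = 8.03e-09).

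Cyclins, CDK1 and CDC25. All 6 genes were called lower on both days. CCNB1, the cyclin that activates CDK1 at mitotic entry, stood at 63.02, 61.9 and 52.6 FPKM in BEFs, 2.1, 2.78 and 6.42 in CiADCs-3d and 0.93, 1.19 and 0.55 in CiADCs-6d. The 3 groups did not overlap, and CiADCs-3d replicate 3 was the highest of its group. The log2 fold change of CCNB1 was -3.96 ± 0.32 (SE, adjusted p = 5.51e-07) on day 3, or -4.61 without CiADCs-3d replicate 3, and -6.08 ± 0.38 (SE, adjusted p = 4.34e-08) on day 6. CDK1, the kinase itself, fell least of the 6 by day 6, with 22.6, 23.8 and 16.97 FPKM in BEFs, 3.51, 4.87 and 5.39 in CiADCs-3d and 2.19, 2.73 and 1.78 in CiADCs-6d. Here too the groups did not overlap, and the log2 fold changes were -2.39 ± 0.18 (SE, adjusted p = 2.46e-07) and -3.31 ± 0.19 (SE, adjusted p = 1.84e-08). Of the other 4, CCNA2, a cyclin of S and G2 phase, changed by -4.48 and -5.92 (log2), CCNB2 by -4.02 and -5.47, and the CDK1-activating phosphatases CDC25B by -3.27 and -4.999 and CDC25C by -2.05 and -3.49. As levels in BEFs, CDC25B at 30.2 FPKM was the more abundant of the pair, with CDC25C at 3.83 FPKM.

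APC/C activators and securin. This group held both one of the deepest falls and one of the shallowest. CDC20, the activator of the APC/C that the checkpoint inhibits, stood at 62.1, 60.5 and 59.5 FPKM in BEFs, 1.82, 1.92 and 4.7 in CiADCs-3d and 0.58, 0.32 and 0.22 in CiADCs-6d. The groups did not overlap, and the log2 fold change was -4.42 ± 0.30 (SE, adjusted p = 1.25e-07) on day 3 and -7.36 ± 0.39 (SE, adjusted p = 9.81e-09) on day 6, and the day 3 value was -5.03 without CiADCs-3d replicate 3. UBE2C, the ubiquitin-conjugating enzyme that starts chains on APC/C substrates, was the most abundant of the 52 genes in BEFs per length. Its values were 115, 115 and 101 FPKM in BEFs, 3.28, 4.88 and 11.3 in CiADCs-3d and 2.52, 1.39 and 2.71 in CiADCs-6d. The groups of UBE2C did not overlap, and the log2 fold changes were -4.08 ± 0.34 (SE, adjusted p = 6.83e-07), or -4.76 without CiADCs-3d replicate 3, and -5.70 ± 0.39 (SE, adjusted p = 8.61e-08). UBE2S, the enzyme that extends those chains, behaved otherwise, at 81.1, 80.2 and 75.1 FPKM in BEFs, 32.7, 27.6 and 30.7 in CiADCs-3d and 55.05, 47.2 and 45.6 in CiADCs-6d. All its CiADCs-6d samples lay above all CiADCs-3d samples and below all BEFs samples. UBE2S was called lower on day 3 (-1.40 ± 0.10 SE, adjusted p = 2.47e-07) and missed the fold threshold on day 6 (-0.71 ± 0.10 SE, adjusted p = 5.44e-05). PTTG1, securin, which holds separase inactive until anaphase, changed by -2.97 and -3.24 (log2).

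Aurora and Polo kinases. PLK1, a kinase with roles from mitotic entry to cytokinesis, had the highest level per length of the 3, at 34.9, 33.7 and 33.6 FPKM in BEFs, 4.58, 4.86 and 6.66 in CiADCs-3d and 5.61, 5.88 and 5.81 in CiADCs-6d. The CiADCs-6d samples lay inside the range of the CiADCs-3d samples, all far below the BEFs, and the log2 fold changes were -2.68 ± 0.14 (SE, adjusted p = 1.18e-08) and -2.60 ± 0.14 (SE, adjusted p = 1.18e-08). PLK4, the kinase that starts centriole duplication, went further down by day 6, with 6.75, 8.39 and 6.78 FPKM in BEFs, 0.64, 0.8 and 1.93 in CiADCs-3d and 0.27, 0.48 and 0.45 in CiADCs-6d. Its 3 groups did not overlap, and the log2 fold changes were -2.69 ± 0.33 (SE, adjusted p = 1.93e-05), or -3.35 without CiADCs-3d replicate 3, and -4.22 ± 0.37 (SE, adjusted p = 8.86e-07). AURKA, which matures centrosomes and builds the spindle poles, changed by -3.17 ± 0.30 on day 3 (-3.79 without CiADCs-3d replicate 3) and -4.01 ± 0.32 on day 6 (log2, SE).

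Spindle assembly checkpoint. Of the 5 genes, 4 were called lower on each day, and BUB3 on neither. BUB1, a checkpoint kinase that docks on the kinetochore, had the largest fall of the 5 by day 6, at 18.3, 20.6 and 15.97 FPKM in BEFs, 0.7, 1.03 and 1.87 in CiADCs-3d and 0.36, 0.2 and 0.24 in CiADCs-6d. BUB1B, whose product BubR1 is part of the complex that inhibits CDC20, followed at 22.6, 24.6 and 20.03 FPKM in BEFs, 1.23, 1.91 and 3.27 in CiADCs-3d and 0.68, 0.38 and 0.33 in CiADCs-6d. In both genes the 3 groups were apart, with CiADCs-6d lowest. The log2 fold changes were -3.91 ± 0.28 (SE, adjusted p = 1.95e-07) and -6.15 ± 0.34 (SE, adjusted p = 1.49e-08) for BUB1, and -3.39 ± 0.29 (SE, adjusted p = 8.74e-07) and -5.62 ± 0.34 (SE, adjusted p = 3.49e-08) for BUB1B. BUB3, the partner that carries both to the kinetochore, stayed high, at 60.9, 58.7 and 56.6 FPKM in BEFs, 30.4, 31.02 and 27.1 in CiADCs-3d and 29.1, 35.7 and 36.2 in CiADCs-6d. Its induced samples overlapped each other and lay below the BEFs by a difference under the fold threshold, -0.91 ± 0.10 (SE, adjusted p = 8.86e-06) on day 3 and -0.74 ± 0.10 (SE, adjusted p = 3.72e-05) on day 6. MAD2L1, the checkpoint protein that binds CDC20, changed by -2.40 and -2.29 (log2), and TTK (MPS1), the kinase at the head of the checkpoint, by -3.94 and -5.22.

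Chromosomal passenger complex. This complex of a kinase, a scaffold and a pair of targeting subunits corrects faulty attachments and later moves to the central spindle. All 4 genes were called lower on both days. INCENP, the scaffold, fell least, at 28.4, 27.7 and 28.8 FPKM in BEFs, 8.26, 12.4 and 11.2 in CiADCs-3d and 6.82, 6.26 and 6.47 in CiADCs-6d. AURKB, the kinase, fell most, at 25.8, 25.4 and 25.02 FPKM in BEFs, 1.48, 1.59 and 2.72 in CiADCs-3d and 0.44, 0.47 and 0.56 in CiADCs-6d. BIRC5 (survivin), a targeting subunit with the highest level of the 4 in BEFs, stood at 46.02, 45.8 and 42.6 FPKM in BEFs, 2.9, 3.19 and 4.76 in CiADCs-3d and 1.98, 1.56 and 1.03 in CiADCs-6d. In each of these genes the 3 groups were apart and CiADCs-6d was lowest. The log2 fold changes on day 3 and day 6 were -1.43 ± 0.14 (SE, adjusted p = 2.59e-06) and -2.15 ± 0.14 (SE, adjusted p = 7.10e-08) for INCENP, -3.72 ± 0.20 (SE, adjusted p = 1.55e-08) and -5.74 ± 0.24 (SE, adjusted p = 1.45e-09) for AURKB, and -3.64 ± 0.20 (SE, adjusted p = 2.03e-08) and -4.90 ± 0.22 (SE, adjusted p = 2.95e-09) for BIRC5. CDCA8 (borealin), the other targeting subunit, changed by -3.70 and -5.18 (log2).

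Because of these unequal falls the FPKM ratio of AURKB to INCENP was 0.870 to 0.916 in the BEFs samples, 0.128 to 0.244 in CiADCs-3d and 0.0645 to 0.0866 in CiADCs-6d. For BIRC5 to INCENP it was 1.48 to 1.65, 0.256 to 0.426 and 0.159 to 0.290, and for CDCA8 to INCENP 0.688 to 0.816, 0.114 to 0.210 and 0.0528 to 0.139. In every induced sample INCENP was above each of the other subunits, while in BEFs BIRC5 was above INCENP. These ratios describe transcript levels and were not tested.

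Centromere and inner kinetochore. HJURP, the chaperone that loads CENPA onto centromeres, stood at 34.2, 35.3 and 32.4 FPKM in BEFs, 0.75, 1.53 and 3.21 in CiADCs-3d and 0.7, 0.61 and 0.25 in CiADCs-6d. Its groups did not overlap, although the lowest CiADCs-3d sample was close to the highest CiADCs-6d sample. The log2 fold changes of HJURP were -4.19 ± 0.36 (SE, adjusted p = 8.60e-07), or -4.84 without CiADCs-3d replicate 3, and -6.03 ± 0.41 (SE, adjusted p = 9.36e-08). CENPA, the histone H3 variant that marks the centromere, changed by -3.88 ± 0.39 (-4.60 without CiADCs-3d replicate 3) and -5.48 ± 0.45 (log2, SE). CENPK, a member of the constitutive inner kinetochore network, was the least changed of the 4 and the least abundant, at 4.01, 3.95 and 2.32 FPKM in BEFs, 0.68, 0.27 and 0.79 in CiADCs-3d and 0.59, 0.47 and 0.47 in CiADCs-6d. Its induced samples overlapped and rest on 9 to 30 counts each, and the log2 fold changes were -2.57 ± 0.35 (SE, adjusted p = 5.22e-05) and -2.78 ± 0.36 (SE, adjusted p = 2.49e-05). CENPN, which binds CENPA nucleosomes, changed by -3.08 and -3.70 (log2).

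Outer kinetochore. SPC24, a subunit of the NDC80 complex that links the kinetochore to microtubules, kept much of its level on day 3 and less on day 6, at 103, 92.8 and 98.96 FPKM in BEFs, 23.9, 33.2 and 58.4 in CiADCs-3d and 16.3, 10.2 and 10.2 in CiADCs-6d. The 3 groups did not overlap, with a wide spread among CiADCs-3d samples, and the log2 fold changes were -1.34 ± 0.27 (SE, adjusted p = 0.000904) and -3.0003 ± 0.29 (SE, adjusted p = 1.90e-06). CENPF, a large protein of the outer kinetochore corona, fell most of the 6, at 17.96, 19.7 and 15.5 FPKM in BEFs, 0.56, 0.87 and 1.87 in CiADCs-3d and 0.39, 0.29 and 0.2 in CiADCs-6d. It changed by -4.02 ± 0.34 (SE, adjusted p = 8.74e-07), or -4.65 without CiADCs-3d replicate 3, and by -5.97 ± 0.39 (SE, adjusted p = 6.66e-08). CENPE, the kinesin that brings chromosomes to the spindle equator, changed by -3.12 and -4.12 (log2).

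The other subunits of the NDC80 complex had larger log2 falls than SPC24 on both days. NDC80 itself changed by -3.53 ± 0.30 on day 3 and -5.17 ± 0.35 on day 6, NUF2 by -2.996 ± 0.26 and -4.31 ± 0.29, and SPC25, the direct partner of SPC24, by -3.48 ± 0.30 (-4.08 without CiADCs-3d replicate 3) and -3.97 ± 0.32 (log2, SE). As FPKM ratios to NDC80, SPC24 ran from 7.52 to 9.79 in BEFs, 36.5 to 45.2 in CiADCs-3d and 23.1 to 74.0 in CiADCs-6d. For NUF2 the ratio was 0.814 to 0.926, 1.17 to 1.81 and 1.43 to 2.05, and for SPC25 0.591 to 0.641, 0.453 to 0.794 and 1.27 to 1.63. All 3 ratios were higher in every CiADCs-6d sample than in any BEFs sample, and that of SPC25 on day 3 overlapped the BEFs range. NDC80 was at 11 to 22 counts in the CiADCs-6d samples, which limits the precision of these ratios, and they were not tested.

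**Figure D3:**
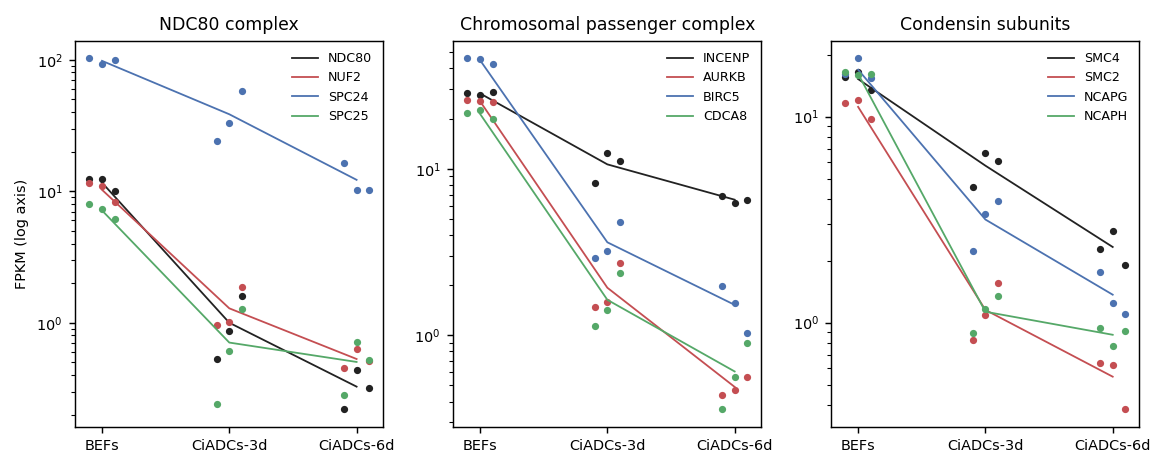
FPKM on a log axis of the subunits of the NDC80 complex, the chromosomal passenger complex and condensin, with 1 point per sample (3 per group) and lines through the group means. SPC24 lies above its partners in all groups, while INCENP and SMC4 lie above all their partners in the induced samples but not in BEFs.

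Spindle motors and microtubule binders. KIF2C, a kinesin that takes microtubules apart at centromeres, reached one of the lowest residual levels of the 52 genes, at 24.2, 23.3 and 22.4 FPKM in BEFs, 0.79, 0.98 and 2.14 in CiADCs-3d and 0.1, 0.28 and 0.05 in CiADCs-6d. The groups did not overlap, and the CiADCs-6d values rest on 6, 17 and 3 counts. Its log2 fold changes were -4.13 ± 0.31 (SE, adjusted p = 2.93e-07) and -7.33 ± 0.41 (SE, adjusted p = 1.71e-08), the latter -8.22 without CiADCs-6d replicate 2. DLGAP5 (HURP), which stabilises the microtubule fibres that reach kinetochores, showed 10.3, 11.4 and 8.7 FPKM in BEFs, 0.67, 0.58 and 1.3 in CiADCs-3d and 0.09, 0.29 and 0.12 in CiADCs-6d. DLGAP5 was likewise lowest in CiADCs-6d, where it had 5, 18 and 7 counts, with log2 fold changes of -3.58 ± 0.30 (SE, adjusted p = 8.30e-07) and -5.86 ± 0.38 (SE, adjusted p = 5.22e-08), the latter -6.55 without CiADCs-6d replicate 2. TPX2, the spindle assembly factor that activates AURKA, kept about the same share on both days, at 42.8, 43.6 and 37.3 FPKM in BEFs, 14.7, 13.7 and 13.9 in CiADCs-3d and 11.6, 15.6 and 13.5 in CiADCs-6d. Its induced samples overlapped and all lay below the BEFs, with log2 fold changes of -1.57 ± 0.12 (SE, adjusted p = 3.75e-07) and -1.66 ± 0.12 (SE, adjusted p = 1.85e-07).

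HMMR, the hyaluronan-mediated motility receptor, which also binds the spindle, was the gene least changed. It stood at 11.2, 11.8 and 8.59 FPKM in BEFs, 5.74, 5.3 and 6.77 in CiADCs-3d and 7.26, 12.8 and 7.57 in CiADCs-6d. The CiADCs-3d samples lay below all BEFs samples, the CiADCs-6d samples lay above all CiADCs-3d samples, and CiADCs-6d replicate 2 exceeded every BEFs sample, at 116% of their mean in CPM. HMMR was not called on either day, with log2 fold changes of -0.85 ± 0.20 (SE, adjusted p = 0.00327) and -0.24 ± 0.20 (SE, adjusted p = 0.314). NUSAP1, which bundles microtubules near chromosomes, changed by -3.94 on day 3 and -3.12 on day 6, KIF11 (Eg5), the motor that separates spindle poles, by -3.55 and -4.78, and the chromokinesin KIF4A by -3.63 and -5.70 (log2).

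Central spindle and cytokinesis. KIF20A, the kinesin that brings the passenger complex to the central spindle, had the largest fall of all 52 genes on both days, at 82.5, 82.3 and 74.9 FPKM in BEFs, 0.95, 2.26 and 4.96 in CiADCs-3d and 0.36, 0.45 and 0.48 in CiADCs-6d. Its 3 groups did not overlap, and the CiADCs-3d samples differed among themselves by several fold. The log2 fold changes were -4.86 ± 0.40 (SE, adjusted p = 6.14e-07), or -5.63 without CiADCs-3d replicate 3, and -7.55 ± 0.49 (SE, adjusted p = 5.39e-08), which left 3.39% and 0.532% of the BEFs level. ECT2, the exchange factor that activates RhoA at the division plane, fell least of the 5, at 8.44, 9.88 and 7.47 FPKM in BEFs, 1.85, 1.46 and 1.99 in CiADCs-3d and 1.64, 2.61 and 1.94 in CiADCs-6d. The induced samples of ECT2 overlapped each other, and the log2 fold changes were -2.30 ± 0.18 (SE, adjusted p = 4.74e-07) and -2.11 ± 0.18 (SE, adjusted p = 7.24e-07). ANLN, anillin, a scaffold of the contractile ring, changed by -3.83 and -4.93, the microtubule bundler PRC1 by -3.08 and -2.94, and KIF23, the motor subunit of centralspindlin, by -2.83 and -2.66 (log2).

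Chromosome condensation and topology. TOP2A, the topoisomerase that untangles sister DNA, stood at 47.2, 50.4 and 39.5 FPKM in BEFs, 2.32, 2.86 and 5.39 in CiADCs-3d and 1.21, 1.44 and 1.12 in CiADCs-6d. The 3 groups were apart, with log2 fold changes of -3.69 ± 0.26 (SE, adjusted p = 1.64e-07) and -5.21 ± 0.29 (SE, adjusted p = 1.41e-08). SMC4, one of the SMC core subunits of condensin, fell least, at 15.7, 16.5 and 13.5 FPKM in BEFs, 4.58, 6.65 and 6.12 in CiADCs-3d and 2.28, 2.8 and 1.91 in CiADCs-6d. Its groups did not overlap either, and the log2 fold changes were -1.42 ± 0.16 (SE, adjusted p = 9.91e-06) and -2.77 ± 0.17 (SE, adjusted p = 3.93e-08). SMC2, with which SMC4 pairs, changed by -3.27 and -4.37 (log2), and the condensin I subunits NCAPG by -2.42 and -3.65 and NCAPH by -3.60 and -3.79. The FPKM ratio of SMC2 to SMC4 was 0.720 to 0.747 in BEFs, 0.164 to 0.253 in CiADCs-3d and 0.199 to 0.281 in CiADCs-6d, so SMC2 lay further below SMC4 in every induced sample than in any BEFs sample. NCAPG to SMC4 went from 1.02 to 1.16 in BEFs to 0.487 to 0.636 and 0.443 to 0.772, and NCAPH to SMC4 from 0.959 to 1.19 to 0.174 to 0.219 and 0.275 to 0.476. For NCAPH the day 6 log2 ratio to BEFs was -4.21 in FPKM and -3.79 in CPM, so its FPKM ratios depend on the scale.

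What remained of the 52 genes was therefore of another makeup than in BEFs. The summed FPKM of the 52 genes was 1577, 1590.0 and 1428 in the BEFs samples, 191.5, 217 and 296 in the CiADCs-3d samples and 183, 193.5 and 177 in the CiADCs-6d samples. In BEFs the highest levels belonged to UBE2C (110.3 FPKM), SPC24 (98.1 FPKM) and KIF20A (79.9 FPKM), and the 8 highest genes held 40.2% of the sum. In CiADCs-6d UBE2S alone held 26.7%, and UBE2S, BUB3, TPX2 and SPC24 together 59.0%. KIF20A was the third of the 52 in BEFs and had 0.36 to 0.48 FPKM in CiADCs-6d.

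The comparison of CiADCs-6d with CiADCs-3d addresses whether the fall went on after day 3. Of the 52 genes 33 were called lower on day 6 and 0 higher, where 3.22% of all tested genes were called lower and 4.09% higher. By the adjusted p alone 35 were lower and 3 higher (13.6% and 14.4% of all genes), the added lower ones being CDK1 (-0.92) and INCENP (-0.73) and the higher ones NUSAP1 (0.82 ± 0.26 SE, adjusted p = 0.0324), UBE2S (0.68 ± 0.10 SE, adjusted p = 0.000973) and HMMR (0.61 ± 0.20 SE, adjusted p = 0.042). The median log2 fold change of the 52 genes was -1.30. For 34 of the 52 every CiADCs-6d sample lay below every CiADCs-3d sample (18.0% of all genes), and for 3 every one lay above (19.1%).

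The 6 largest of these differences belonged to a centromere kinesin, the APC/C activator, the central spindle kinesin, a kinetochore fibre protein and checkpoint genes. They were -3.20 ± 0.47 (SE, adjusted p = 0.00084) for KIF2C, -2.94 ± 0.42 (SE, adjusted p = 0.000718) for CDC20, -2.70 ± 0.49 (SE, adjusted p = 0.00239) for KIF20A, -2.29 ± 0.43 (SE, adjusted p = 0.00281) for DLGAP5, -2.24 ± 0.37 (SE, adjusted p = 0.00141) for BUB1 and -2.23 ± 0.35 (SE, adjusted p = 0.00112) for BUB1B. Without CiADCs-3d replicate 3 the values were -2.33 for CDC20 and -1.93 for KIF20A, and without CiADCs-6d replicate 2 they were -4.11 for KIF2C and -2.99 for DLGAP5, all still called lower. In the other 14 genes the adjusted p was 0.05 or more, with log2 differences from -0.84 (AURKA) to 0.19 (ECT2). These were MYBL2, PTTG1, AURKA, PLK1, BUB3, MAD2L1, CENPK, CENPN, SPC25, TPX2, KIF23, PRC1, ECT2 and NCAPH, a mixed group by role. Their median residual level was 14.7% on day 3 and 15.2% on day 6, against 7.57% and 2.23% for the 33 genes called lower, values given as a description because the comparison itself formed the groups.

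How many genes were called between the days depended on CiADCs-3d replicate 3. Without it 23 of the 33 were still called lower, and the 10 that were not had log2 differences between -1.31 (FOXM1) and -0.81 (ANLN). NUSAP1 was then called higher, at 1.25 (adjusted p = 0.00439). The median over the 52 genes was -0.94 without that sample. CDK1 was called lower without CiADCs-3d replicate 1 (-1.10) and without CiADCs-6d replicate 2 (-1.09), and AURKA was called lower without CiADCs-3d replicate 1 (-1.19).

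**Figure D4:**
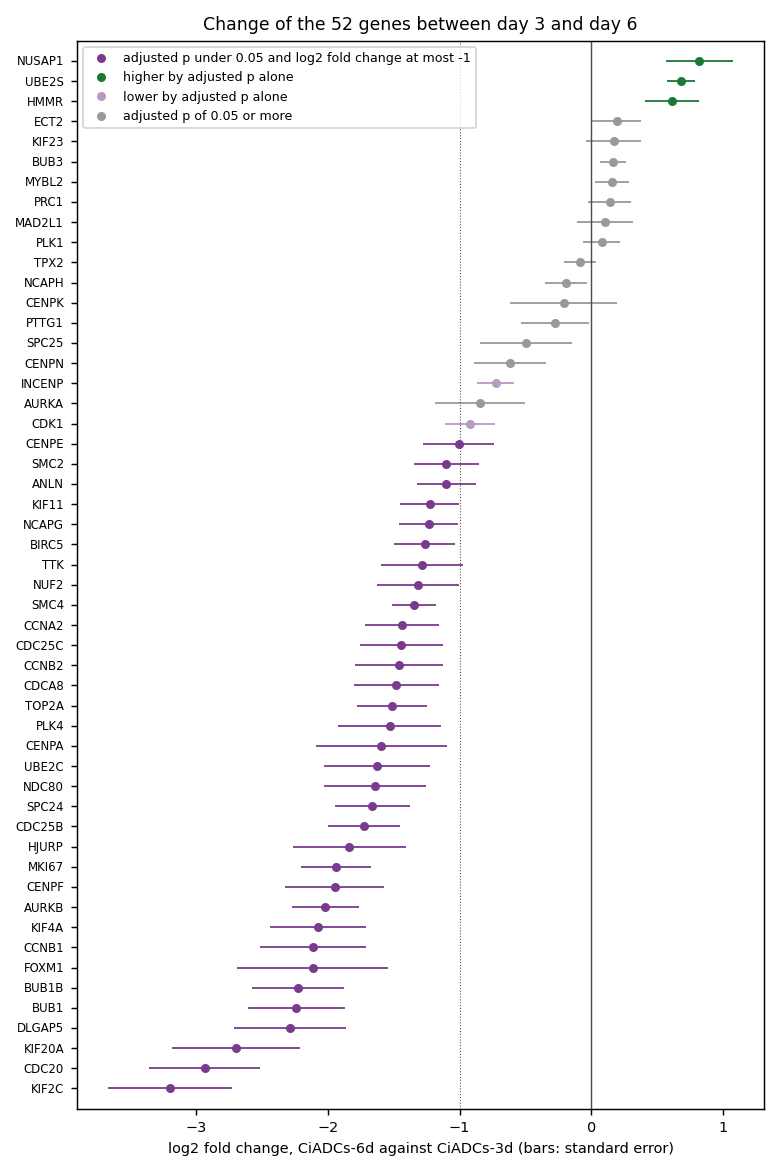
Log2 fold change of CiADCs-6d against CiADCs-3d for each of the 52 genes, sorted, with bars for the standard error. The 33 genes in dark purple pass both thresholds, KIF2C at -3.20 is farthest down, and NUSAP1, UBE2S and HMMR in green are higher by adjusted p alone.

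Other genes of mitosis, 126 in 10 lists set by function, were also called lower more often than higher. On day 3, 78 of the 126 were called lower and 0 higher, beside 9.94% and 18.2% of all tested genes. On day 6 it was 80 lower and 2 higher, beside 13.4% and 21.9%. The medians were -1.46 and -1.43 (log2). Between the days 14 were called lower and 0 higher, beside 3.22% and 4.09%. Of each list, the gene named first is the one with the largest fall on day 6 among those with at least 10 CPM in BEFs. Of 26 other centromere and kinetochore subunits 21 were called lower on day 3 and 23 on day 6, with KNL1, the scaffold that recruits the BUB proteins (-3.91 ± 0.26 SE, adjusted p = 1.04e-07, and -5.63 ± 0.31 SE, adjusted p = 1.25e-08). Of 17 other mitotic motors and spindle proteins 15 were lower on each day, with the kinesin KIF18B (-4.45 and -6.42), and all 4 other condensin subunits were lower on both days, with NCAPG2 at -3.49 and -4.62. Among 14 other mitotic kinases and regulators it was 10 and 11, with NEK2, a kinase of centrosome separation (-3.60 and -5.62). Of 9 corona and other checkpoint genes 7 and 6 were lower, with KNTC1 (ROD), which recruits dynein to kinetochores (-3.42 and -5.11).

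The remaining lists were mixed, and several hold genes that also act outside mitosis. Of 16 APC/C subunits and regulators 2 were lower on day 3 and 4 on day 6, small counts to be read against the 9.94% and 13.4% of all tested genes, among them FBXO5, which is no core subunit but an inhibitor of the complex (-3.76 and -3.70). Cohesin and its regulators had 6 and 5 of 14 lower, with ESPL1, separase (-3.05 and -3.76), and ESCO1, a cohesin acetyltransferase, was higher on day 6 (1.20 ± 0.28 SE, adjusted p = 0.00202). Of 6 other cytokinesis genes 3 were lower on each day (CEP55, -3.10 and -4.16), and of 10 centriole duplication genes 8 and 7 (STIL, -3.43 and -3.55). Of 10 DREAM and MuvB subunits 2 were lower on each day, again a small count beside those shares, MYBL1 (-1.82 and -1.07) and LIN9, and E2F5 was higher on day 6 (1.14 ± 0.26 SE, adjusted p = 0.00174). Whether the lists differ from the 52 genes was not tested.

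**Figure D5:**
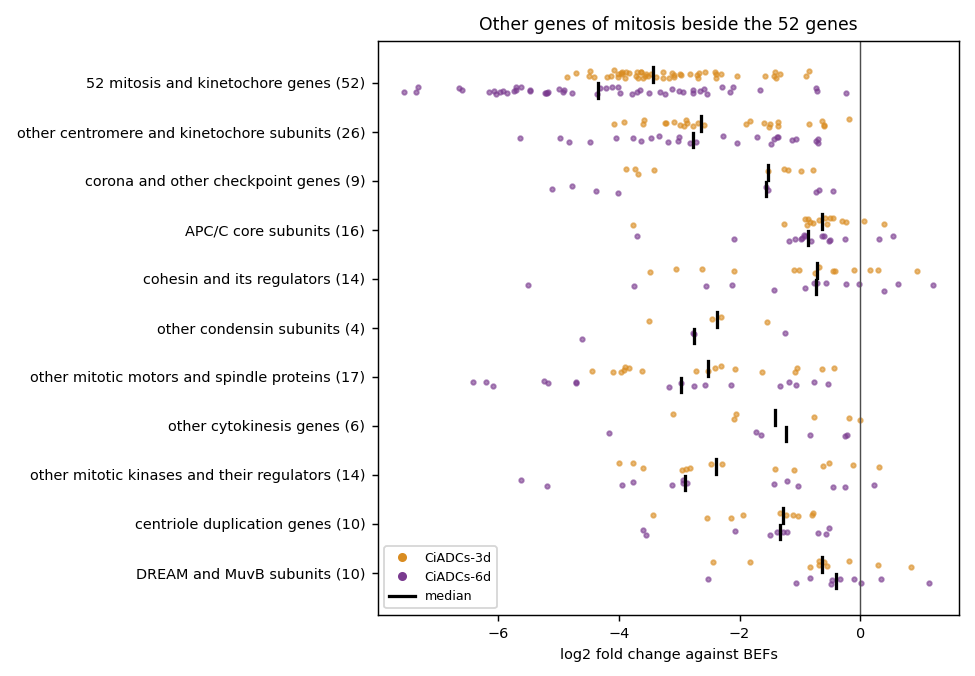
Log2 fold change against BEFs of the 52 genes and of 10 other lists of mitotic genes, with 1 point per gene and a bar at the median, for CiADCs-3d and CiADCs-6d. The APC/C, cohesin and DREAM and MuvB lists lie nearest to 0, and the number of genes is given beside each list.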

How the data were processed

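RNA-seq covered 3 samples of every group, and the authors deposited 1 table with 2 values per gene and sample, an estimated count and an FPKM value (fragments per kilobase of transcript, scaled to library size). The submitters' processing notes list RSEM, HISAT2 2.2.4, StringTie 1.3.1 and fastp 0.18.0, whereas the methods of the study name TopHat and HTSeq. The labels give Ribo-Zero as the library kit, which those methods name for prokaryotic mRNA, with oligo(dT) enrichment for eukaryotic mRNA. The genome build is not given in the sources used here. Reads of genes with near-identical copies, and of overlapping genes, may have been shared in the counting.

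From the deposited estimated counts, rounded to whole numbers, genes with low counts were removed with filterByExpr (minimum count 10, minimum total 15), which left 14020 genes and removed 7492. All 9 samples were fitted with edgeR 4.0.16 (TMM scaling, quasi-likelihood test, group as the only term), and p-values were adjusted over all tested genes by Benjamini and Hochberg. A call needed both an adjusted p below 0.05 and a log2 fold change of at least 1 in size. The standard error was taken as the absolute log2 fold change over the root of the F statistic. CPM is the count scaled to the TMM-scaled library, and the residual level is CPM in percent of the BEFs mean. FPKM as deposited by the authors served for levels between genes. The edgeR fit was run on simulated counts with few changed genes, called by the adjusted p alone. Because many genes changed here and calls also needed a fold, that run does not test these calls. Alternatives were DESeq2 1.42.0, limma 3.58.1 on log2(FPKM + 1) and log2(FPKM + 0.1), other scalings and filters, a replicate block, the fit of only the groups compared, and leaving out each sample. R 4.3.3 and Python 3.11.15 were used.

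The genes and lists, 126 other mitotic genes in 10 lists and 40 cell type markers in 7 lists, were chosen with earlier results of these data known. Every one of the 52 genes could be named. Values per sample are given for the gene of each role with the highest BEFs FPKM and those with the largest and smallest day 6 fall, for genes not called lower on one of the days, and for the 6 largest changes between the days. Symbols were looked up by gene ID in the RefSeq gene table of assembly ARS-UCD2.0, where 20582 of the 21039 gene IDs were found. Of the list genes, KIF14, KIF20B, ESCO2, CENPJ, ANAPC1 and ANAPC15 also have further entries, so their counts are uncertain. The further entry of KIF20B was called higher on day 6 (log2 1.52, adjusted p = 0.00958 in the edgeR test) and was not called on day 3. That of KIF14 was called lower on both days (-3.58 and -4.86). Neither is part of the list counts. Promoter motifs, coordinates and sequences are not analysed here.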

Additional observations from a re-analysis of the deposited data

Results flagged for a closer look

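CiADCs-6d differed from CiADCs-3d in 33 of the 52 genes, in each case with the lower level on day 6. The edgeR test compared the 2 groups directly (adjusted p under 0.05 and at least 1 in log2 size). The share of all tested genes called lower in that test was 3.22%. For the transcription factor and proliferation marker genes the log2 differences were -1.94 for MKI67 and -2.12 for FOXM1. Among the cyclins and CDC25 phosphatases they were -1.44 for CCNA2, -2.11 for CCNB1, -1.46 for CCNB2, -1.72 for CDC25B and -1.44 for CDC25C. The APC/C group gave -2.94 for CDC20 and -1.63 for UBE2C. Of the Aurora and Polo kinases the value was -1.53 for PLK4. In the checkpoint the values were -2.24 for BUB1, -2.23 for BUB1B and -1.28 for TTK. The passenger complex had -2.02 for AURKB, -1.27 for BIRC5 and -1.48 for CDCA8. At the centromere and inner kinetochore they were -1.84 for HJURP and -1.59 for CENPA. In the outer kinetochore they came to -1.01 for CENPE, -1.95 for CENPF, -1.64 for NDC80, -1.32 for NUF2 and -1.66 for SPC24. The spindle motors and microtubule binders gave -1.23 for KIF11, -3.20 for KIF2C, -2.07 for KIF4A and -2.29 for DLGAP5. For the central spindle and cytokinesis the differences were -2.70 for KIF20A and -1.10 for ANLN. The condensation genes showed -1.52 for TOP2A, -1.23 for NCAPG, -1.10 for SMC2 and -1.35 for SMC4.

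The calls of 10 of these genes were lost without CiADCs-3d replicate 3, with log2 differences of -1.31 for FOXM1, -0.95 for UBE2C, -0.88 for PLK4, -0.93 for TTK, -0.88 for CENPA, -0.82 for CENPE, -0.91 for NUF2, -0.98 for KIF11, -0.81 for ANLN and -0.83 for SMC2. Without that sample CCNB1 was at -1.47, CDC20 at -2.33, HJURP at -1.20, CENPF at -1.33 and KIF20A at -1.93, all still called. Without CiADCs-6d replicate 2 the calls of CENPA (-1.58) and UBE2C (-1.39) were lost, while FOXM1 was at -3.07, KIF2C at -4.11 and DLGAP5 at -2.99. Without CiADCs-6d replicate 3 the calls of FOXM1 (-1.86), CENPA (-1.47), CENPE (-0.92) and SMC2 (-0.95) were lost, without CiADCs-6d replicate 1 that of CENPE (-0.90) and without CiADCs-3d replicate 2 that of CENPA (-1.66). With 3 samples a group, single samples were not tested as outliers.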

How the results depend on the processing

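Against BEFs no call of the 52 genes was lost under any setting in which the gene was tested. On day 3, 50 were called lower and on day 6, 49, without the filter, with both limma fits, with total-count or upper-quartile scaling, with DESeq2 and every left-out sample, and 44 and 43 of the 46 genes with at least 10 counts in every sample. The adjusted p alone added BUB3 and HMMR on day 3 and BUB3 and UBE2S on day 6. The median log2 fold change was -2.70 on day 3 and -3.10 on day 6 with limma on log2(FPKM + 1), with or without the filter, a scale that understates changes of low genes. On day 6 it was -4.10 with log2(FPKM + 0.1) and -4.12 with at least 10 counts in every sample, and over the left-out samples it ran from -3.80 to -3.13 on day 3 and from -4.46 to -4.30 on day 6. The median residual level moved by less than the spread between samples with FPKM (9.71% and 5.03%) and with total counts (9.21% and 5.03%).

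Between the days, where many of the genes were under 1 FPKM, the count depended on the settings. The genes called lower numbered 7 with limma on log2(FPKM + 1) and 6 without the filter (0.692% and 0.535% of all genes). They numbered 30 with log2(FPKM + 0.1) (2.61%) and 28 of 46 with at least 10 counts in every sample (2.47%). Under the other settings with the fold threshold it was 31 to 33 (2.63% to 3.61%), and 23 to 35 over the left-out samples (2.06% to 5.85%). By the adjusted p alone it was 35 (13.6%). Genes called higher numbered 3 by the adjusted p alone (14.4% of all genes) and 0 to 1 over the left-out samples (2.87% to 5.01%). The median was -0.57 with log2(FPKM + 1), with or without the filter, -1.11 with log2(FPKM + 0.1), and -1.50 to -0.94 over the left-out samples. FOXM1 and CENPA lost their call when only the 2 groups compared were fitted, and CENPE with total-count scaling.

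Over the left-out samples the sign of some uncalled differences between the days turned. They ran from -0.025 to 0.24 for MYBL2, from -0.50 to 0.054 for PTTG1, from -0.071 to 0.27 for PLK1, from -0.047 to 0.23 for MAD2L1, from -0.55 to 0.11 for CENPK, from -0.82 to 0.094 for SPC25, from -0.024 to 0.39 for KIF23 and from -0.023 to 0.30 for ECT2. The sign turned without CiADCs-3d replicate 1 (MYBL2, PLK1), CiADCs-3d replicate 3 (PTTG1, MAD2L1 at -0.0042, CENPK, SPC25), CiADCs-6d replicate 2 (MAD2L1, KIF23, ECT2) and CiADCs-6d replicate 3 (KIF23 at -0.0035).

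The samples share replicate numbers, but same-numbered samples did not deviate together (correlations of their deviations from the group means over all tested genes from -0.37 to 0.15), so the numbers were not taken as pairs. With the replicate block 50, 49 and 32 genes were called lower on day 3, on day 6 and between the days, and CENPA lost its call between the days (-1.51). Other scalings moved the median of all genes by at most 0.055 in log2 size. The promoter window alternative was not run. Depth limits the genes that fell furthest, since FOXM1, CDC20, KIF2C, KIF4A and DLGAP5 had under 10 counts in a CiADCs-6d sample and CENPK in a CiADCs-3d sample.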
